A study of Homo sapiens with 18 samples.

Results

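Eph receptors and ephrins are a family of cell surface receptors and ligands, and 10 of its genes were followed in PANC-1 cells after knockdown (KD) of NAT10. The 10 genes, EPHB2, EPHB3, EPHB4, EPHB6, EPHA2, EPHA4, EFNA1, EFNA4, EFNB1 and EFNB2, were taken as a list from a table of 58302 genes, and the list was chosen on results of these same data, with EPHB3 picked for its fall after NAT10 KD. The levels in the RNA-seq groups and their differences are therefore given for these genes as a description, and no test is read for them. Where a listed gene is named as called lower or higher, the call is only a label from the fit of all genes. Another 12 Eph receptors and ephrins, which the list does not hold, were looked at as well, so that the family of 14 receptors and 8 ephrins is covered. Of these 12 genes, 6 had enough RNA to be tested in the same fit.

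PANC-1 is an established cell line from a human pancreatic ductal carcinoma. NAT10 is the writer enzyme of N4-acetylcytidine (ac4C), an acetylated form of cytidine in RNA. The cells carried, by lentivirus, either a control vector (shCtrl) or a vector with a short hairpin RNA against NAT10 (shNAT10). The labels describe the control vector as empty, whereas the study's methods list a non-targeting shRNA. RNA-seq was made from 3 shCtrl and 3 shNAT10 samples. In acRIP-seq, RNA fragments are pulled down with an antibody against ac4C (IP) and compared with the fragments before the pull-down (input), and here 3 IP and 3 input libraries per group stand behind 1 deposited peak list per group. Both groups carry a viral vector, and the shNAT10 group rests on 1 labelled shRNA condition, so an effect of the hairpin other than loss of NAT10 cannot be told apart from that loss. The labels do not say that the replicates came from separate cultures, so p-values measure only the spread between these samples, which may be technical.

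Eph receptors are receptor tyrosine kinases that bind ephrins on neighboring cells. A-type receptors mostly bind ephrin-A ligands, which are held in the membrane by a lipid anchor, and B-type receptors mostly bind ephrin-B ligands, which span the membrane and can signal back into the cell that carries them. The pairs are known for contact repulsion, for the guidance of growing axons and for the sorting of epithelial cells, and in the intestinal epithelium EPHB2 and EPHB3 are known targets of Wnt/β-catenin signaling.

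The RNA-seq libraries held 15831720 to 23521762 reads on genes, as recovered from the FPKM values (read counts scaled to gene length and library depth). NAT10 itself measured 31.6, 27.7 and 28.6 FPKM in the shCtrl libraries and 7.92, 8.43 and 7.90 FPKM in the shNAT10 libraries, a log2 fold change of −1.84 ± 0.08 (SE; limma, Benjamini-Hochberg adjusted p = 3.85e-05). The 4 ductal keratins KRT7, KRT8, KRT18 and KRT19 summed to 2780 to 3740 FPKM in shCtrl cells and to 1470 to 1650 FPKM in shNAT10 cells. None of the 4 acinar, 2 endocrine, 4 leukocyte or 3 endothelial markers reached 1 FPKM in any library. Of 4 fibroblast markers 2 reached 1 FPKM, with sums of 29.5 to 34.7 FPKM in the shCtrl libraries and 19.2 to 22.9 FPKM in the shNAT10 libraries. These moved in opposite directions, with a mean of 31.1 and 19.2 FPKM for COL1A1 and of 0.776 and 1.96 FPKM for COL3A1, and the part of these marker shifts in the differences given here was not tested. A gene was tested if 3 or more libraries reached 1 FPKM, which left 12982 genes, and 21.2% of them were called lower and 20.8% were called higher after NAT10 KD at an adjusted p under 0.05. With each library rescaled to an equal sum of values (TPM) this balance moved from 2751 lower and 2699 higher genes to 2080 lower and 3365 higher genes, with the median log2 fold change of all genes at 0.0953 instead of −0.01.

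The levels of the 10 genes ranged from under 1 FPKM to over 60 FPKM. In shCtrl cells the order of their levels ran from EPHA2 through EPHB4, EPHB6, EFNA1, EFNA4, EFNB1, EPHB2, EPHB3 and EFNB2 to EPHA4. Only EPHB6 and EFNA1 overlapped with their neighbor in this order, and all other neighbors were separated in all 3 libraries. After NAT10 KD, EPHB3 moved from the eighth place to the last, below EPHA4 in every library. Of the 10 genes, 8 passed the filter on expression, and EPHA4 and EFNB2 did not.

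**Figure D1:**
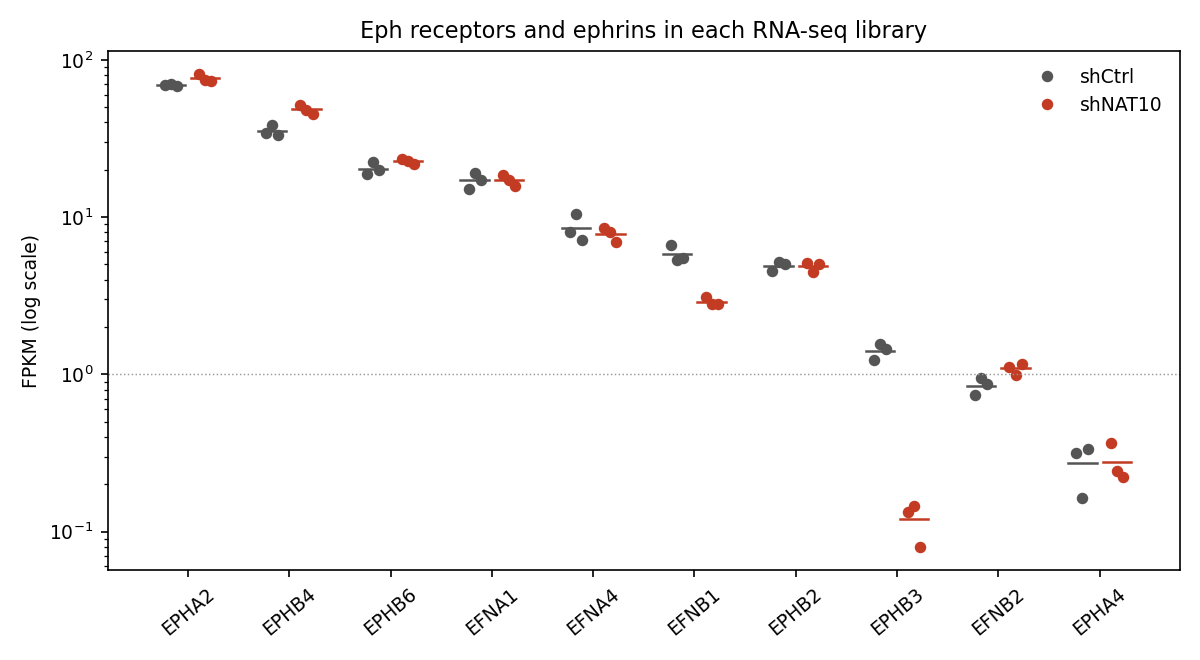
FPKM of the 10 Eph receptors and ephrins in each of the 6 RNA-seq libraries, on a log axis, with 3 shCtrl points in grey and 3 shNAT10 points in red per gene, horizontal lines at the group means and a dotted line at 1 FPKM. EPHB3 dropped from 1.24 to 1.56 FPKM in shCtrl cells to between 0.0801 and 0.146 FPKM in shNAT10 cells, whereas EPHB2 and EFNA1 kept overlapping values.

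Among the B-type receptors, EPHB3 stood out by the size of its fall, which is the value it was chosen by. EPHB3 (ENSG00000182580, chr3:184561784-184582409 on GRCh38, plus strand) measured 1.24, 1.56 and 1.44 FPKM in the shCtrl libraries and 0.134, 0.146 and 0.0801 FPKM in the shNAT10 libraries. These values rest on 91, 134 and 143 reads in shCtrl cells and on 9, 12 and 6 reads in shNAT10 cells. Every shNAT10 value was thus below every shCtrl value, and no support is read from this, since EPHB3 was chosen by its fall. The 95% exact Poisson intervals of the reads reached up to 21.0 reads in shNAT10 cells and down to 73.3 reads in shCtrl cells. These intervals cover counting error only. The log2 fold change, on the scale of log2(FPKM + 0.1), was −2.79 ± 0.34 (SE, n = 3 per group), the sixth largest fall of the 12982 genes tested. The added 0.1 FPKM is close to the level left in shNAT10 cells, and the ratio of the mean FPKM values was 11.8. With a pseudocount of 1 the log2 fold change was −1.11, and on the recovered reads it was −3.52. EPHB3 passed the filter on expression only through its shCtrl values. As these are bulk samples, fewer cells with EPHB3 RNA and less of it per cell cannot be told apart.

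The other 3 B-type receptors of the list did not follow EPHB3. EPHB2, the receptor that acts beside EPHB3 in the intestinal crypt, measured 4.52, 5.15 and 5.05 FPKM in the shCtrl libraries and 5.13, 4.49 and 5.01 FPKM in the shNAT10 libraries. The EPHB2 groups overlapped, with a log2 fold change of −0.01 ± 0.10 (95% interval −0.23 to 0.22). EPHB4, a receptor of ephrin-B2 known from blood vessels and from carcinomas, measured 34.2, 38.5 and 33.1 FPKM in the shCtrl libraries and 51.6, 47.9 and 45.5 FPKM in the shNAT10 libraries. All 3 shNAT10 values of EPHB4 lay above the shCtrl values, with a log2 fold change of 0.46 ± 0.08. EPHB6, which lacks kinase activity, measured 18.8, 22.3 and 19.8 FPKM in the shCtrl libraries and 23.3, 22.7 and 21.7 FPKM in the shNAT10 libraries. Its groups overlapped through shCtrl replicate 2, and the log2 fold change was 0.16 ± 0.08. Within a library, EPHB4 exceeded EPHB3 by 23 to 27.6 times in shCtrl cells and by 329 to 567 times in shNAT10 cells.

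The A-type receptors of the list were EPHA2 and EPHA4, at the top and the bottom of the order. EPHA2, the A-type receptor that many carcinomas express, measured 69.6, 69.7 and 68.4 FPKM in the shCtrl libraries and 80.8, 74.7 and 73.3 FPKM in the shNAT10 libraries. Its shNAT10 values all lay above the shCtrl values, by a log2 fold change of 0.14 ± 0.06. EPHA4, a receptor known from axon guidance that binds both ligand types, measured 0.318, 0.164 and 0.335 FPKM in the shCtrl libraries and 0.368, 0.243 and 0.223 FPKM in the shNAT10 libraries. EPHA4 stayed below the filter in all 6 libraries and its groups overlapped, with a log2 fold change of 0.04 ± 0.34 in the fit without a filter.

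The ephrin-A ligands of the list showed no separation of the groups. EFNA1, a ligand of EPHA2, measured 15.1, 19.0 and 17.2 FPKM in the shCtrl libraries and 18.5, 17.2 and 15.8 FPKM in the shNAT10 libraries. The log2 fold change of EFNA1 was 0.01 ± 0.11 (95% interval −0.24 to 0.26). EFNA4 measured 8.08, 10.5 and 7.10 FPKM in the shCtrl libraries and 8.50, 8.07 and 6.90 FPKM in the shNAT10 libraries. The EFNA4 groups overlapped as well, with a log2 fold change of −0.11 ± 0.15, and 11.5% of the 50-base words of its transcript also occur in the read-through transcript AL691442.1, so reads there could be split between both genes.

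The ephrin-B ligands differed from each other. EFNB1 (ENSG00000090776, chrX:68828997-68842147, plus strand), a transmembrane ligand of EPHB2 and EPHB3, measured 6.68, 5.32 and 5.49 FPKM in the shCtrl libraries and 3.09, 2.81 and 2.80 FPKM in the shNAT10 libraries. The groups were separated, on 357 to 428 reads per shCtrl library and 162 to 181 reads per shNAT10 library. The log2 fold change of EFNB1 was −0.98 ± 0.11, and the ratio of the mean FPKM values was 2.01. EFNB2, the ligand of EPHB4, measured 0.737, 0.941 and 0.867 FPKM in the shCtrl libraries and 1.12, 0.992 and 1.17 FPKM in the shNAT10 libraries. EFNB2 missed the filter by 1 library at 0.992 FPKM, and its shNAT10 values all lay above the shCtrl values, with a log2 fold change of 0.33 ± 0.20 in the fit without a filter. Of the exon bases of EFNB2, 26.2% are also covered on the other strand by AL138689.2, and the strand setting of the counting is not given in the sources used here.

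By count, 2 of the 8 listed genes that passed the filter were called lower (EPHB3 and EFNB1) and 1 was called higher (EPHB4), and 5 were not called. The background is 21.2% of all tested genes called lower and 20.8% called higher. EPHB3 alone was also beyond a log2 fold change of −1, as were 3.57% of all tested genes called lower, and no listed gene was called higher beyond 1, as were 2.91% of all tested genes. In 2 of the 8 genes all shNAT10 values lay below the shCtrl values, and in 2 (EPHB4 and EPHA2) all lay above, against 28.6% and 27.9% of all tested genes. Nothing is read from these calls and counts, since the list was chosen on this contrast. The median log2 fold change of the 8 genes was 0.0004, against −0.01 for all tested genes.

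The other Eph receptors and ephrins were not in the list, and their RNA was tested, with earlier results of these data known. Of these 12 genes, 6 passed the filter, and 1 was called lower and 2 higher, against 21.2% and 20.8% of all tested genes. EFNB3, the third ephrin-B ligand, measured 1.93, 2.21 and 2.16 FPKM in the shCtrl libraries and 0.549, 0.623 and 0.527 FPKM in the shNAT10 libraries. All 3 shNAT10 values of EFNB3 lay below the shCtrl values, with a log2 fold change of −1.73 ± 0.18 (limma, adjusted p = 0.000541). EFNB3 passed the filter only through shCtrl cells. EPHA7, an A-type receptor known from the developing nervous system, measured 1.22, 0.600 and 1.15 FPKM in the shCtrl libraries and 2.30, 2.37 and 2.55 FPKM in the shNAT10 libraries. It rose by 1.25 ± 0.26 on the log2 scale (limma, adjusted p = 0.00851), with shCtrl replicate 2 as its lowest library. EPHA10 measured 0.627, 0.701 and 0.650 FPKM in the shCtrl libraries and 1.12, 1.19 and 1.00 FPKM in the shNAT10 libraries. Its log2 fold change of 0.66 ± 0.21 passed the test narrowly (limma, adjusted p = 0.0418) and lost the call when any of the 6 libraries was left out and with no filter on expression, with an adjusted p of up to 0.135 over all alternatives. EPHA7 and EPHA10 passed the filter only through shNAT10 cells. Each called gene here thus passed the filter only through the group where it was higher, so its p-value is given as a description.

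The 3 remaining genes of this kind were ephrin-A ligands that did not pass the test. EFNA2 had a log2 fold change of −0.52 ± 0.29 (limma, adjusted p = 0.188), EFNA3 one of −0.06 ± 0.17 (adjusted p = 0.777) and EFNA5 one of −0.19 ± 0.08 (adjusted p = 0.114). EFNA3 shares 44.7% of its exon bases with AL691442.1, and EFNA4 shares 15.0%. The other 6 genes, all Eph receptors, stayed below the filter.

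**Figure D2:**
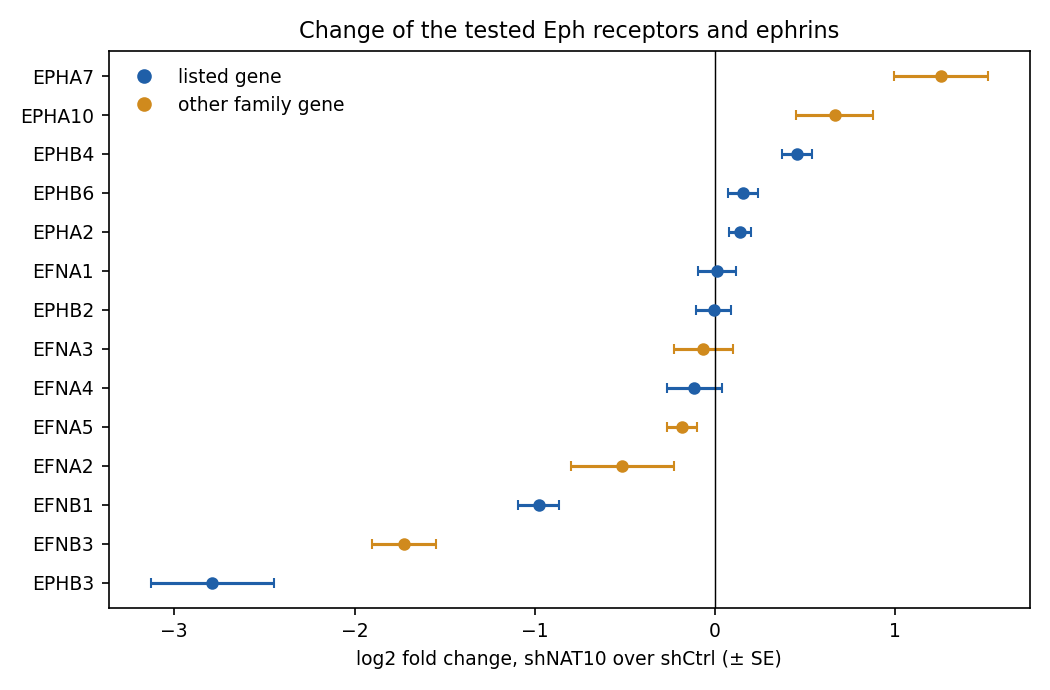
Log2 fold change of shNAT10 over shCtrl cells with its standard error for the 14 tested Eph receptors and ephrins, with listed genes in blue and other family genes in orange. EPHB3 (−2.79), EFNB3 (−1.73) and EFNB1 (−0.98) lie farthest to the left, and EPHA7 (1.25) farthest to the right.

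Summed by class over all 22 genes, the FPKM values give the amount of each class per length of gene. EphA receptors summed to 71.9, 71.2 and 70.6 FPKM in the shCtrl libraries and 84.7, 78.7 and 77.3 FPKM in the shNAT10 libraries, and EPHA2 made up 97.2% and 95% of this. EphB receptors summed to 58.8, 67.5 and 59.5 FPKM in the shCtrl libraries and 80.3, 75.5 and 72.3 FPKM in the shNAT10 libraries, with 56.9% and 63.6% from EPHB4. The EphB sum was thus higher in every shNAT10 library, although EPHB3 was lower, since EPHB3 is a small part of its class. Ephrin-A ligands summed to 32.3, 40.5 and 34.0 FPKM in the shCtrl libraries and 35.2, 34.6 and 31.5 FPKM in the shNAT10 libraries. Ephrin-B ligands summed to 9.35, 8.47 and 8.52 FPKM in the shCtrl libraries and 4.76, 4.42 and 4.49 FPKM in the shNAT10 libraries. The ephrin-A sums overlapped and the ephrin-B sums did not, with a ratio of the means of 0.519 for ephrin-B. As the sums include the genes chosen on this contrast, no test is given.

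The promoters of EPHB3 and EFNB1 are shown since these were the listed genes called lower. Each sequence is the 250 bases before the RefSeq transcription start on GRCh38.p14, 5′ to 3′ in the direction of the gene, at chr3:184561535-184561784 (plus strand) for EPHB3 and chrX:68828771-68829020 (plus strand) for EFNB1. Capitals mark the GC box GGGCGG and the CCAAT box CCAAT on either strand, which can overlap.
EPHB3: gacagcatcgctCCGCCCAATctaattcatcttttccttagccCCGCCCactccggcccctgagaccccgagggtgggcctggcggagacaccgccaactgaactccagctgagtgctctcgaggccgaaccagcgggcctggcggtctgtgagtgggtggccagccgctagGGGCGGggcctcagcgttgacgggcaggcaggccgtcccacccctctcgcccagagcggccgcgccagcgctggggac
EFNB1: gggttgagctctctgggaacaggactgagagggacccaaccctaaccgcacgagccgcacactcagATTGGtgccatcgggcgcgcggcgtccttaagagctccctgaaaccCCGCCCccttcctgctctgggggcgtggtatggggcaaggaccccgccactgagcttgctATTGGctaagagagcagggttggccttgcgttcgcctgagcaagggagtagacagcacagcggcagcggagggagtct
The EPHB3 window held 3 GC boxes and 1 CCAAT box, and the EFNB1 window held 1 GC box and 2 CCAAT boxes. Neither held the core motif of TCF/LEF factors CTTTGA or the TATA box TATAAA on either strand. Of the 12 RefSeq windows of the 10 genes, 12 held a GC box, 7 a CCAAT box, 1 the TCF/LEF core and 1 a TATA box. EPHA4 and EPHB2 each gave 2 of these windows, and those of EPHB2 are the same stretch moved by 1 base. Among all 35116 windows of this length the shares were 42.6%, 32%, 11.2% and 10.7%. The windows of the 10 genes were 43.2% to 84.8% G and C, against a median of 58.0% in all windows. A match is no more than these letters in the window.

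The genes whose pattern over the 6 libraries was most like that of EPHB3 were MOV10, CD82, RBM22, TGM2 and PMP22, with Pearson r from 0.9981 to 0.9997 on log2(FPKM + 0.1). As the 6 libraries fall into a pair of groups, r is high for any gene with a clean step between them, and 189 genes had an r over 0.99. MOV10, an RNA helicase, measured 15.1, 16.1 and 15.6 FPKM in the shCtrl libraries and 10, 10 and 9.32 FPKM in the shNAT10 libraries. CD82, a membrane protein of the tetraspanin family, measured 4.33, 4.73 and 4.55 FPKM in the shCtrl libraries and 1.08, 1.15 and 0.914 FPKM in the shNAT10 libraries.

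Genes that act with Eph receptors and ephrins were taken, with earlier results of these data known, as 4 lists of 54 genes in all, of which 48 were tested. Of these, 12 were called lower and 15 higher in shNAT10 cells and 21 were not called, where the shares of all tested genes were 21.2% and 20.8%, with a median log2 fold change of 0.17 against −0.01 for all tested genes. Without shNAT10 replicate 2 the number called higher was 9, while that of all 12982 tested genes moved from 2699 to 1774.

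Among 17 tested adaptors and binding partners, 3 were called lower and 7 higher, against 21.2% and 20.8% of all tested genes. GRB7, an SH2 adaptor that binds EPHB1, measured 0.771, 0.837 and 0.777 FPKM in the shCtrl libraries and 2.08, 2.36 and 1.99 FPKM in the shNAT10 libraries. NCK2, an SH2/SH3 adaptor, measured 8.94, 8.91 and 8.43 FPKM in the shCtrl libraries and 18.9, 18.1 and 16.8 FPKM in the shNAT10 libraries. Both rose in all 3 shNAT10 libraries, by 1.32 ± 0.16 (limma, adjusted p = 0.000958) and 1.03 ± 0.07 (adjusted p = 0.000149) on the log2 scale, and GRB7 passed the filter only through shNAT10 cells. ANKS1B, an adaptor with a SAM domain, rose from 1.47, 0.992 and 1.06 FPKM to 2.80, 2.37 and 2.34 FPKM, a log2 fold change of 1.05 ± 0.18 (limma, adjusted p = 0.00433). It also passed the filter only through shNAT10 cells. The p-values of GRB7 and ANKS1B are thus given as a description, and both genes are within the count called higher. DOK1, a docking protein of tyrosine kinases, fell from 3.72, 5.12 and 4.31 FPKM to 2.35, 2.70 and 2.39 FPKM, a log2 fold change of −0.79 ± 0.14 (limma, adjusted p = 0.0042).

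Among 13 tested kinases and GTPases, 4 were called lower and 4 higher, against 21.2% and 20.8% of all tested genes. LYN, a kinase of the SRC family, measured 10.1, 9.56 and 10.5 FPKM in the shCtrl libraries and 2.89, 3.06 and 3.47 FPKM in the shNAT10 libraries. PAK1, a kinase activated by the GTPases RAC1 and CDC42, with 14.8% of its exon bases also covered by the antisense gene AP003680.1, measured 25.6, 25.7 and 27.0 FPKM in the shCtrl libraries and 13.8, 13.6 and 15.3 FPKM in the shNAT10 libraries. LYN fell with a log2 fold change of −1.65 ± 0.09 (limma, adjusted p = 6.83e-05) and PAK1 with one of −0.87 ± 0.07 (adjusted p = 0.000253). RAC1 rose from 92.6, 116 and 103 FPKM to 201, 208 and 202 FPKM, a log2 fold change of 0.98 ± 0.09 (limma, adjusted p = 0.000339). Among 10 tested proteases, phosphatases and turnover factors that act on the receptors and ligands, 4 were called lower and 1 higher, against the same shares of all tested genes.

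Of 20 genes of the Wnt/β-catenin pathway, which drives EPHB2 and EPHB3 in the intestine, 14 were tested, and 1 was called lower and 6 higher, against 21.2% and 20.8% of all tested genes, with a median log2 fold change of 0.26 for the 14. The Wnt list was also chosen with earlier results of these data known. With 1 library left out, 0 to 4 of the 14 genes were called lower and 3 to 7 higher. Those called lower were 4 without shCtrl replicate 2, and 0 without shCtrl replicate 3, shNAT10 replicate 2 or shNAT10 replicate 3. Those called higher were 3 without shCtrl replicate 3 or any shNAT10 replicate. Over all tested genes the same fits called 1765 to 3318 lower and 1774 to 3303 higher. DKK1, a secreted Wnt inhibitor, measured 119, 131 and 117 FPKM in the shCtrl libraries and 323, 327 and 315 FPKM in the shNAT10 libraries, and rose by 1.39 ± 0.07 on the log2 scale (limma, adjusted p = 5.07e-05). The transcription factors TCF7 and TCF7L1 rose by 0.79 ± 0.11 (limma, adjusted p = 0.00199) and 0.73 ± 0.10 (adjusted p = 0.00136). AXIN2, a common target of the pathway that shares 25.2% of its exon bases with AC004805.1, rose by 0.65 ± 0.18 (limma, adjusted p = 0.0254) and lost the call without shCtrl replicate 3, without any 1 of the shNAT10 replicates and with no filter on expression, with an adjusted p of up to 0.082 over all alternatives. AXIN2 passed the filter only through shNAT10 cells, so its p-value is given as a description, and it is within the count called higher. ZNRF3, a ubiquitin ligase that removes Wnt receptors, was the 1 gene called lower, at −0.63 ± 0.15 (limma, adjusted p = 0.0158), and lost the call without shCtrl replicate 3, shNAT10 replicate 2 or shNAT10 replicate 3, with an adjusted p of up to 0.0652 over all alternatives.

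**Figure D3:**
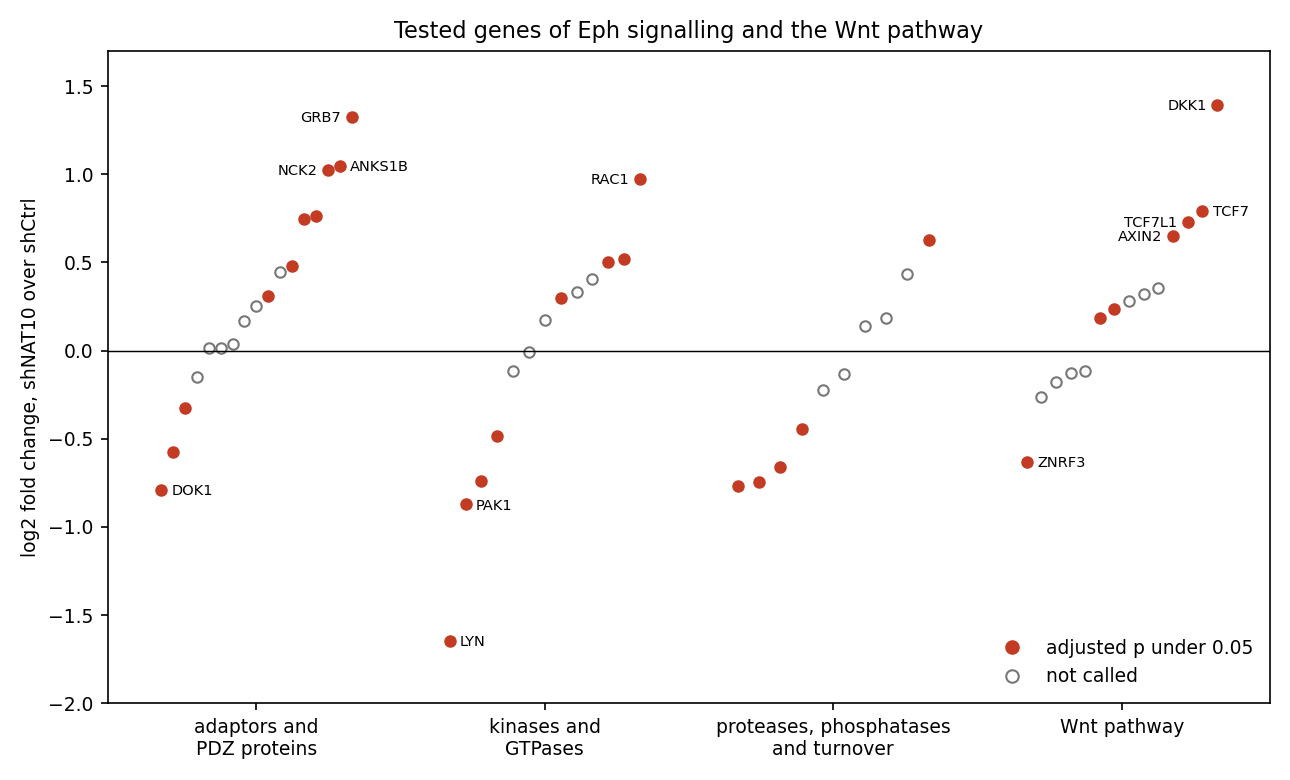
Log2 fold change of shNAT10 over shCtrl cells for each tested gene of 3 of the Eph signaling lists and of the Wnt pathway list, with filled points for genes called at an adjusted p under 0.05. LYN (−1.65) is the lowest point, and DKK1 (1.39) and GRB7 (1.32) are the highest.

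In acRIP-seq, peaks were listed on 3 of the 10 genes in shCtrl cells and on none of the 10 in shNAT10 cells. The 3 genes with a peak were EPHA2 and EFNA1, which were not called in the RNA contrast, and EFNB2, which was below the filter. EPHB3, EFNB1 and EPHB4, the listed genes called in the RNA contrast, had no peak in either list. Of all 12982 tested genes 49.6% had a peak in the shCtrl list, 47.7% in the shNAT10 list and 15.8% in the shCtrl list but not in the shNAT10 list. Of the 8 listed genes that passed the filter, 2 had a shCtrl peak. As there is 1 list per group, the difference has no replicate check. Peaks were more frequent on more expressed genes. Among tested genes at 20 to 100 FPKM the share with a shCtrl peak was 69.6%, against 31.9% at 1 to 5 FPKM. Of the 3 listed genes at 20 to 100 FPKM in shCtrl cells 1 had a peak, and of the same number in shNAT10 cells 0 had one, where the share of all genes was 68.9%.

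The parts of these peaks that lie in coding sequence are shown, as these are the stretches of the 10 genes that were listed as enriched by the ac4C antibody. They were read from GENCODE v29 transcripts on GRCh38, 5′ to 3′ in the direction of the mRNA, and capitals mark matches of CNN, a C and any 2 further bases, 4 times in a row, which extends the ac4C motif. The EPHA2 peak spans chr1:16138180-16148428 (minus strand, 4 blocks), the EFNA1 peaks chr1:155127997-155129669 (plus strand, 2 blocks) and chr1:155131322-155131501 (plus strand), and the EFNB2 peak chr13:106493083-106493263 (minus strand).
EPHA2: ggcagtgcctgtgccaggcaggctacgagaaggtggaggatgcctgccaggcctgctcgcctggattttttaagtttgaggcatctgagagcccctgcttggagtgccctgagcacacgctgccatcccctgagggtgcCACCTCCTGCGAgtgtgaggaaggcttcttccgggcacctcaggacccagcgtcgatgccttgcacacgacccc
EFNA1, first peak: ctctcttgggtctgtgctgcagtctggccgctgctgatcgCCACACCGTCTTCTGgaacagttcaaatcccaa
EFNA1, second peak: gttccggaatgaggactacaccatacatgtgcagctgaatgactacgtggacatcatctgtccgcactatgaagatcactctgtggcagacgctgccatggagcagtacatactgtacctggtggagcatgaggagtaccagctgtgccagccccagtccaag
EFNB2: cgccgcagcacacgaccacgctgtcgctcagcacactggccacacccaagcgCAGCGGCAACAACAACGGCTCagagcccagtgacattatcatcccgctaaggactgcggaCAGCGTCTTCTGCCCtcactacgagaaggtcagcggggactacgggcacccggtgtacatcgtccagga
On the longest coding transcript these stretches cover 213 of the 241 bases of the EPHA2 peak, 73 of 181 and 163 of 180 bases of the EFNA1 peaks, and all 181 bases of the EFNB2 peak. All of these stretches lay within coding sequence. The stretches held 1 match of the motif in EPHA2, 2 and 0 in EFNA1 and 6 in EFNB2, counting overlapping matches, and 51.5% of the shCtrl peaks that lie in full on a longest coding transcript held at least 1.

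The strength of the peaks differed widely between the 3 genes. The fold enrichment of IP over input was 5.25 for EPHA2, 89.3 and 605 for EFNA1 and 236 for EFNB2, against a median of 49.3 over all 16892 shCtrl peaks. EPHA2, the most expressed of the 10 genes, thus had the weakest peak, at the 10.8th percentile of the list, and the second EFNA1 peak the strongest, at the 86.6th percentile. The p-values of the peak caller were 1.6e-68 for EPHA2, 1.6e-76 and 1e-111 for EFNA1 and 1e-109 for EFNB2, all above the median of the list at 1e-114. None of the 4 peaks shared a base with any of the 15813 shNAT10 peaks, as was the case for 74.4% of all 16892 shCtrl peaks, so nothing is read from this count.

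**Figure D4:**
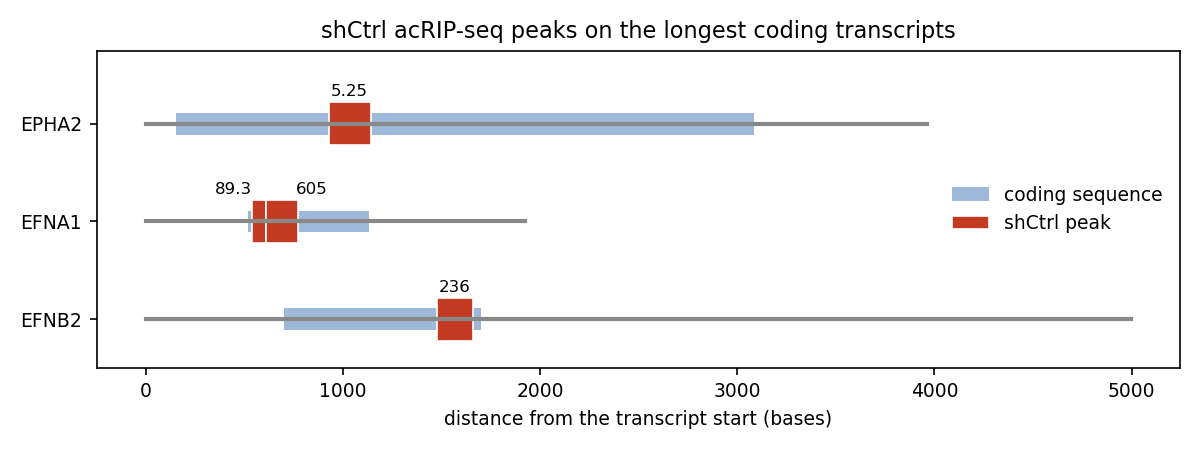
Position of the 4 shCtrl peaks on the longest coding transcripts of EPHA2, EFNA1 and EFNB2, with distance from the transcript start in bases, coding sequence in blue, peaks in red and the fold enrichment above each peak. The EFNB2 peak (fold enrichment 236) covers bases 1477 to 1657 of its transcript, near the end of the coding sequence at base 1697, and the 2 EFNA1 peaks (89.3 and 605) adjoin each other.

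Among the other 12 Eph receptors and ephrins, 3 had a shCtrl peak and 1 a shNAT10 peak. Of the 6 that were tested, 1 had a shCtrl peak and 0 a shNAT10 peak, against 49.6% and 47.7% of all tested genes. Among tested genes at 1 to 5 FPKM these shares were 31.9% and 29%. EFNA2 had a shCtrl peak with a fold enrichment of 10.8, and EPHA1 one of 3.52. The p-values of the peak caller were 0.032 for EFNA2 and 1.6e-19 for EPHA1, against the median of 1e-114 of the shCtrl list. EPHA3 had a shCtrl peak with a fold enrichment of 57.6, while its RNA was at 0, 0 and 0.0220 FPKM in the shCtrl RNA-seq libraries. EPHA6 had the shNAT10 peak, with a fold enrichment of 139, while its RNA was at 0, 0.0130 and 0 FPKM in the shNAT10 libraries. EPHA1 was at 0.0343, 0.0294 and 0.0253 FPKM in the shCtrl libraries, so peaks were also listed on 3 genes with next to no reads in RNA-seq. Of the 48 tested genes of Eph signaling, 32 had a shCtrl peak and 32 a shNAT10 peak, against 49.6% and 47.7% of all tested genes. The list was not matched for level, and the share with a shCtrl peak was 55.7% at 5 to 20 FPKM and 69.6% at 20 to 100 FPKM.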

How the data were processed

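PANC-1 cells with shCtrl or shNAT10 were measured by RNA-seq and acRIP-seq, and samples were grouped by their labels. The authors counted reads on Ensembl genes and deposited FPKM values per library; the submitters' processing notes name HISAT2 2, HTSeq 0.11.0, DESeq2 1.22.2 and GRCh38. For acRIP-seq the authors deposited 1 peak list per group, with the fold enrichment of each peak as a ratio of IP over input. The deposited p-value of each peak is the peak caller's, and that caller is not given in the sources used here.

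Genes reaching 1 FPKM in 3 or more libraries entered a limma fit (version 3.58.1, R 4.3.3) of log2(FPKM + 0.1) with a trended variance, and p-values were adjusted by Benjamini-Hochberg over 12982 genes. Fold changes on this scale understate the change of weakly expressed genes. Read counts were recovered from the FPKM steps (97.2% of values above 0 within 0.02 of a whole read) for 1 alternative, limma's voom. The 10 genes and all lists were chosen with earlier results of these data known. Named were the 10 genes, family genes past the filter, up to 4 genes of the Eph signaling and the Wnt list per direction with the largest called change, the 5 genes most like EPHB3, NAT10 and all peaks on the 10 genes. The single results of 1 signaling list are not reported here. Other peaks on the family are named because they are few, after their values were seen.

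Each peak was placed on the longest coding GENCODE v29 transcript of its gene, and peaks sharing at least 1 base of their blocks were counted as overlapping. The fit was tested on simulated data, with a negative binomial dispersion (spread of reads beyond counting error) of 0.01 in both groups. This value was set and not estimated from the libraries, so the simulated error rates may not carry over. In a simulation of shNAT10 over shCtrl with 12958 genes tested and 200 genes changed by 2 on the log2 scale, 195 were called beside 8 unchanged genes. In one of 12927 genes without any change, 5 were called. Samples were not treated as paired by replicate number. The deviations of same-numbered libraries correlated at −0.043, 0.064 and 0.107, and those of other pairs at −0.122 to 0.063. With 3 libraries per group these values cannot exclude a pairing.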

Additional observations from a re-analysis of the deposited data

How the results depend on the processing

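EFNB3, called lower, and EPHA7, called higher, kept their calls under the 12 alternatives in which they were tested. Each passed the filter only through the group where it was higher, so no support is read from these kept calls. The log2 fold change of EPHB3 was −1.11 with a pseudocount of 1 and −3.52 on the recovered reads, and lay between −2.87 and −2.65 with a library left out. With FPKM of at least 5 in 3 libraries EPHB3 was not tested, so 1 listed gene was called lower, 0 other family genes were called lower and 0 higher since none of them was tested, and 0 Wnt genes lower. On TPM 3 listed genes were called higher, EPHB4, EPHA2 and EPHB6, while the median of all genes stood at 0.0953. Without a filter 1 other family gene and 3 Wnt genes were called higher, where 2241 of all 29695 genes were. With quantile normalization 2 Wnt genes were called lower, where 2837 of all 12982 genes were. With the replicate number as a block 1 other family gene was called higher, EPHA10 and AXIN2 lost their calls, and 2603 genes in all were lower and 2524 higher.

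With each library left out in turn, 1 to 2 listed genes were called higher (2 without shCtrl replicate 2, which added EPHB6), 1 other family gene was called higher each time, 0 to 4 Wnt genes lower, 3 to 7 Wnt genes higher, and 9 to 18 Eph signaling genes higher (9 without shNAT10 replicate 2). Wnt genes called lower were 4 without shCtrl replicate 2 and 0 without shCtrl replicate 3, shNAT10 replicate 2 or shNAT10 replicate 3, and those called higher were 3 without shCtrl replicate 3 or any shNAT10 replicate. Over all genes, 1765 to 3318 were lower and 1774 to 3303 higher. The lower count was 1831 without shNAT10 replicate 1 and 1765 without replicate 3, and the higher count 1774 without shNAT10 replicate 2 and 1785 without replicate 3. When the 50% of peaks lowest in p-value were kept, 0 of the 10 genes had a shCtrl peak. EPHB3 rests on at most 12 reads per shNAT10 library, so its remaining level is known only within its counting interval.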

Other observations

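The genes around EPHB3 were looked at after its fall had been seen. Within 500 kb on either side of EPHB3 on chromosome 3, 14 genes were tested, of which 5 were called lower and 4 higher in shNAT10 cells (limma, Benjamini-Hochberg adjusted p under 0.05), where the shares of all tested genes were 21.2% and 20.8%. AP2M1, a subunit of the clathrin adaptor complex, had the largest change of them, from 138.2 to 60.6 FPKM, with a log2 fold change of −1.19 ± 0.10 (limma, adjusted p = 0.000258). The nearest tested gene was MAGEF1, at 128 kb, with a log2 fold change of 0.08 ± 0.09 (limma, adjusted p = 0.517).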
